A study of Mus musculus with 6 samples.

Results

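The genes described are the receptors Egfr, Erbb2 and Erbb3 and the ligands Hbegf, Ereg, Areg, Tgfa, Btc and Nrg1 of the epidermal growth factor (EGF) family. They were taken by symbol, and all 9 were found among the 48368 gene symbols of the count tables. RNA was measured in 6 libraries of fibroblasts grown from tumours of the mammary gland (cancer-associated fibroblasts, the connective tissue cells of a tumour). The MMTV-PyMT mice used carry the polyomavirus middle T oncogene under the mouse mammary tumour virus promoter, which is active in mammary epithelium, and both groups carry it. One group of 3 libraries is labelled heterozygous for Hic-5 (Hic-5+/-, HET) and the other 3 are labelled knockout (Hic-5-/-, KO). Hic-5, encoded by Tgfb1i1, is a focal adhesion adaptor related to paxillin, and the series asks how expression differs between these genotypes. No wild-type group was analysed here, and no age of the mice is given in the labels. The fibroblasts were parted from tumour organoids by centrifugation and grown in culture, and the series text calls the libraries of a genotype technical triplicates. Nothing else says whether they came from separate animals, so p-values reflect no more than how these libraries spread.

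EGF family ligands are made as precursors that span the cell membrane, and proteases of the ADAM family cut them free. The freed ligand binds an ERBB receptor tyrosine kinase, receptors pair, and the signal runs through adaptors to RAS and ERK, which induce early response genes and feedback inhibitors. EGFR binds EGF, TGF-alpha, amphiregulin, epiregulin, betacellulin, HB-EGF and epigen. ERBB3 and ERBB4 bind neuregulins, while ERBB2 has no known ligand of its own and serves as a partner. In the mammary gland amphiregulin made by the epithelium acts on EGFR of the surrounding stroma to drive growth of the ducts.

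The libraries held 24954273 to 42470598 estimated counts, so that a floor of 3 counts equals 0.0682 to 0.119 CPM. CPM here are counts scaled to the total of the library after adjustment by TMM factors, which even out differences in composition between libraries. The level of the targeted gene did not separate the libraries by label. Tgfb1i1 was at 222, 348 and 125 CPM across HET replicates 1 to 3 and at 90.3, 0.232 and 156 CPM in KO replicates 1 to 3, so transcript of the targeted gene was near absent in KO replicate 2 alone, and exons are not resolved. KO and HET below are therefore labels. KO replicate 2 also stood apart in many cell type markers, with 8 of 12 fibroblast markers at their lowest and 12 of 14 epithelial markers at their highest. The collagen gene Col1a2 stood at 0.490 CPM in this library and 576 to 5102 CPM in the other 5. Postn and Vim, also on the fibroblast list, did not follow it, at 439 and 2866 CPM in KO replicate 2, beside 13.2 to 1306 and 2017 to 4381 CPM elsewhere. The epithelial gene Krt18 stood at 37.8 CPM there and at most 2.93 CPM elsewhere. Ptprc, which marks leukocytes, reached 8.18 CPM (HET replicate 2) and 5.66 CPM (KO replicate 3) and was no more than 0.0454 CPM in the rest. The 12 fibroblast markers together summed to between 9610 and 19331 CPM in the HET libraries and between 3699 and 7284 CPM in the KO libraries, which do not overlap, and the part of these differences in the results below was not tested. Pecam1, of endothelium, and Sox10, of Schwann cells, stayed at or under 0.852 and 0.515 CPM. In these bulk libraries fewer cells of a type and less RNA per cell cannot be told apart.

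The promoter windows of Egfr and Areg are shown because Egfr was the most even of the abundant genes of the family across the libraries, with a range of 2.35-fold, and Areg was among the least even, with a range of 70.5-fold. RefSeq promoter sequences (build GRCm38.p6) matched 5 of the 9 genes, namely Egfr, Erbb2, Areg, Tgfa and Btc. Each line below gives the 250 bases before the start of the gene, 5′ to 3′ on the strand of the gene, with matches to a searched motif in capitals. Areg lies at chr5:91139349-91139598 on the plus strand and Egfr at chr11:16751953-16752202 on the plus strand.
Areg: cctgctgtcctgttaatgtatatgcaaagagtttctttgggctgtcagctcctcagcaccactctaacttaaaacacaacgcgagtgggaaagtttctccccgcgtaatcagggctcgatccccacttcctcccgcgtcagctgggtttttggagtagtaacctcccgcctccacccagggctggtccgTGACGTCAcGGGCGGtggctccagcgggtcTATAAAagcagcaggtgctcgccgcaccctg
Egfr: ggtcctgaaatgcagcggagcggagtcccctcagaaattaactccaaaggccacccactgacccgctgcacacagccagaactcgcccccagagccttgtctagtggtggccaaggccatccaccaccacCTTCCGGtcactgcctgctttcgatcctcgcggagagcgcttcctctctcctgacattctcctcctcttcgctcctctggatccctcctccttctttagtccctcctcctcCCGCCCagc
Both strands were searched for 6 motifs. The cyclic AMP response element was TGACGTCA, and AP-1 was TGANTCA. The SP1 site was read as GGGCGG, and the TATA box as TATAAA. The CCAAT box is spelled by its name, and the ETS site was CCGGAAG. No matches in these windows overlapped. The Areg window held TGACGTCA from 61 to 54 bases before the start, GGGCGG from 52 to 47 and TATAAA from 31 to 26. Of the 32851 RefSeq windows of the same length, 1.55% held TGACGTCA, 32.7% GGGCGG and 12.4% TATAAA. The Egfr window held the ETS letters on the opposite strand from 120 to 114 bases before the start, and GGGCGG on the opposite strand from 9 to 4. The ETS letters were in 6.91% of all windows, AP-1 letters in 6.75% and CCAAT in 33.8%. The windows were 57.2% G and C for Areg and 60.8% for Egfr, beside a median of 52.4% over all windows. A match describes letters and is not a shown binding site.

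Hbegf, the gene of heparin-binding EGF-like growth factor, was the one member whose libraries separated widely by label. All 9 genes passed the filter on low counts and were tested among 17584 genes. None passed the adjusted threshold of 0.05 in the quasi-likelihood test of edgeR, as was so for 0% of all tested genes, where the smallest adjusted p was 0.579. The fitted difference was above 0, that is higher in KO, for all 9, where this was so for 50.9% of tested genes. These 9 genes were chosen with earlier results of these data known. HET replicate 1 was the lowest library for Egfr, Hbegf, Ereg, Areg, Tgfa and Btc. For Ereg and Tgfa the direction changed when certain single libraries were left out. Areg and Hbegf had an unadjusted p under 0.05, a mark passed by 8.59% of tested genes, with 4.3% higher and 4.29% lower in KO. The same 2 genes were the ones whose KO libraries all lay above all HET libraries, a pattern held by 8.09% of tested genes, with 7.4% the other way round. The median log2 fold change was 0.73 over the 9 genes and 0.01 over all tested genes.

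**Figure D1:**
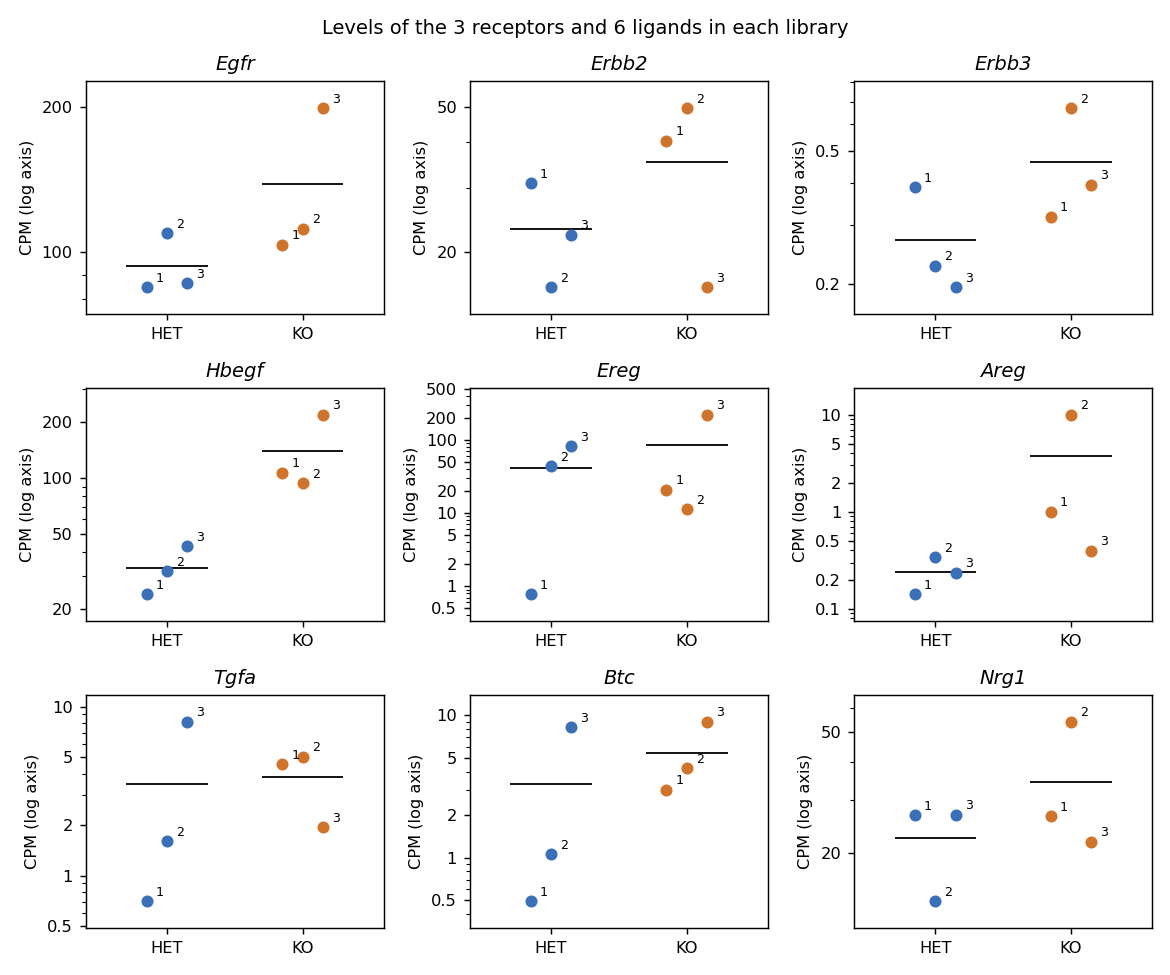
CPM of each receptor and ligand gene on a log axis, with 1 point for each library (numbered by replicate) and a line at the mean of each label. Only Hbegf and Areg have every KO point above every HET point, and Ereg runs from 0.778 CPM in HET replicate 1 to 219.5 CPM in KO replicate 3.

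Egfr, the receptor of most EGF family ligands (chromosome 11, 16752203 to 16918158, GRCm38), was plainly present in all libraries. Its level was 84.7, 109.7 and 86.5 CPM across HET replicates 1 to 3 and at 103.8, 112 and 199 CPM in KO replicates 1 to 3. KO replicate 3 was the high one, and KO replicate 1 lay under HET replicate 2, so the labels overlapped. Egfr averaged 93.6 ± 14.0 CPM over HET and 138 ± 52.9 CPM over KO libraries (SD, n = 3 each), a log2 fold change of 0.56 ± 0.31 (SE; edgeR adjusted p = 0.603). Without KO replicate 3 the log2 fold change was 0.21, and when scaled by library size only, the labels did not overlap. This scaling also moved the median of all tested genes to 0.15.

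Erbb2, the partner receptor without a ligand of its own (chromosome 11, 98412470 to 98437716), was split within each label. Its level was 30.9, 16.1 and 22.4 CPM across HET replicates 1 to 3 and at 40.3, 49.6 and 16.04 CPM in KO replicates 1 to 3. KO replicates 1 and 2 were the highest and KO replicate 3 was the lowest of the 6 libraries, level with HET replicate 2. Its log2 fold change was 0.61 ± 0.46 (edgeR adjusted p = 0.682), with 0.97 without KO replicate 3 and 0.29 without KO replicate 2. The protein-coding gene Mien1 overlaps Erbb2 on the opposite strand, and whether the counting used strand is not stated in the labels.

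Erbb3, a neuregulin receptor with a weak kinase (chromosome 10, 128567523 to 128589652), was barely detected. It had 11, 8 and 5 counts in HET replicates 1 to 3 and 14, 26 and 10 counts in KO replicates 1 to 3. The highest level was 0.671 CPM in KO replicate 2, with an exact Poisson 95% interval of 0.438 to 0.983 CPM that covers counting error only. That interval overlapped those of all other 5 libraries, of which KO replicate 3 (0.190 to 0.728 CPM) and HET replicate 1 (0.194 to 0.696 CPM) were nearest. Its log2 fold change was 0.76 ± 0.54 (edgeR adjusted p = 0.668), and 0.39 without KO replicate 2. Erbb4, the remaining receptor of the family, had 0 counts in every library, which allows up to 0.0682 to 0.119 CPM.

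Compared per length, as CPM per kilobase of annotated exon, Egfr led the receptors in every library. Whether the counts include reads from introns is not stated in the labels, and such reads would raise this level most for genes with long introns, such as Egfr and Nrg1. Its level was 8.27 ± 1.24 in HET and 12.2 ± 4.67 in KO, beside 4.44 ± 1.43 and 6.78 ± 3.33 for Erbb2 (SD, n = 3 each). In KO replicate 2 Egfr (9.89) and Erbb2 (9.52) were nearly level, while in KO replicate 3 Egfr (17.6) stood far above Erbb2 (3.08). Egfr and Erbb2 together made up 99.43% to 99.73% of the summed receptor level. The share of Egfr alone ran from 50.7% in KO replicate 2 to 84.8% in KO replicate 3.

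**Figure D2:**
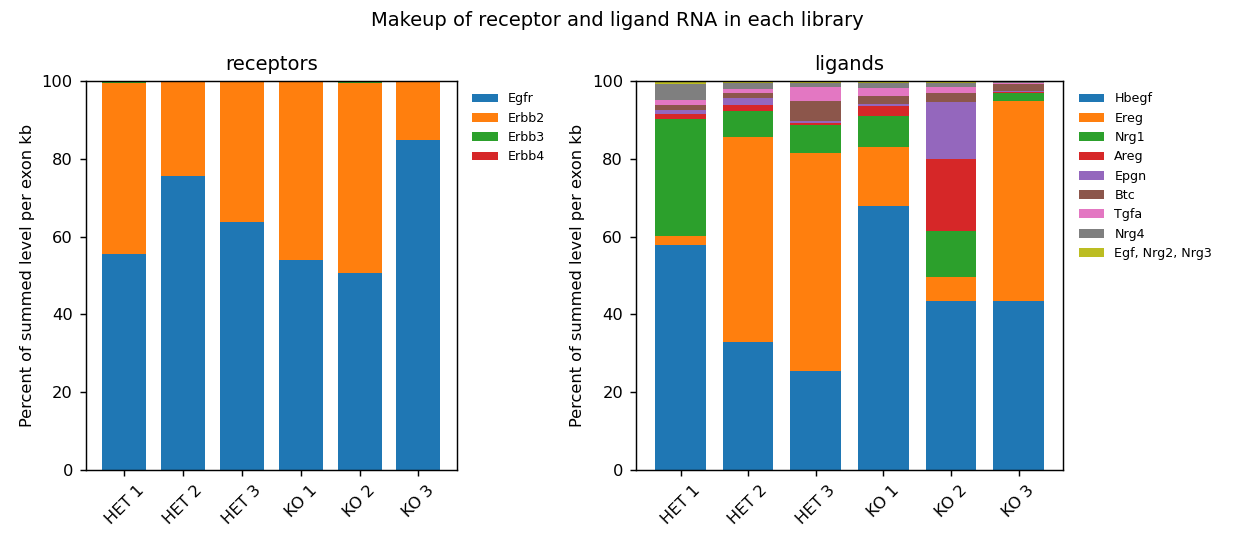
Bars give the percent of the summed level per exon kilobase that each receptor (left) or ligand (right) holds in each library. Egfr and Erbb2 fill nearly all of each receptor bar, while Hbegf and Ereg together hold from 49.7% of the ligand bar in KO replicate 2 to 94.8% in KO replicate 3.

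Hbegf encodes a ligand of EGFR and ERBB4 that binds heparan sulfate (chromosome 18, 36504927 to 36515805). Its level was 23.9, 31.7 and 43.3 CPM across HET replicates 1 to 3 and at 106.6, 93.6 and 218 CPM in KO replicates 1 to 3. Every KO library lay above every HET library, and KO replicate 3 was the highest. Hbegf averaged 33.0 ± 9.77 CPM over HET and 139 ± 68.4 CPM over KO libraries (SD, n = 3 each), a fitted fold of 4.23. The log2 fold change was 2.08 ± 0.41, with an edgeR unadjusted p of 0.00201 and an adjusted p of 0.579. DESeq2 placed Hbegf past its threshold (adjusted p = 0.0023), as it did 0.391% of the genes it adjusted, counting those higher in KO, and Hbegf was the only member there. An exact permutation test of mean log2 CPM gave a two-sided p of 0.10, the smallest that 3 against 3 libraries allow.

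The difference in Hbegf did not rest on KO replicate 2. Its log2 fold change was 2.29 without that library, and it ran from 1.61 without KO replicate 3 to 2.33 without HET replicate 3. Among the KO libraries Hbegf was lowest in KO replicate 2, the library with near absent Tgfb1i1, and highest in KO replicate 3, where Tgfb1i1 was within the HET range. In the HET and KO libraries that share a number in their titles (replicate 3 of each), Hbegf stood at 43.3 and 218 CPM, a ratio of 5.03. Leukocyte markers were high in KO replicate 3 and in HET replicate 2. Their 10 genes summed to 1143 and 1430 CPM there, beside 17.0 to 50.4 CPM elsewhere. Hbegf stood at 218 CPM in KO replicate 3 and at 31.7 CPM in HET replicate 2. Whether leukocytes or the level of Tgfb1i1 had a part in the Hbegf level was not tested.

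**Figure D3:**
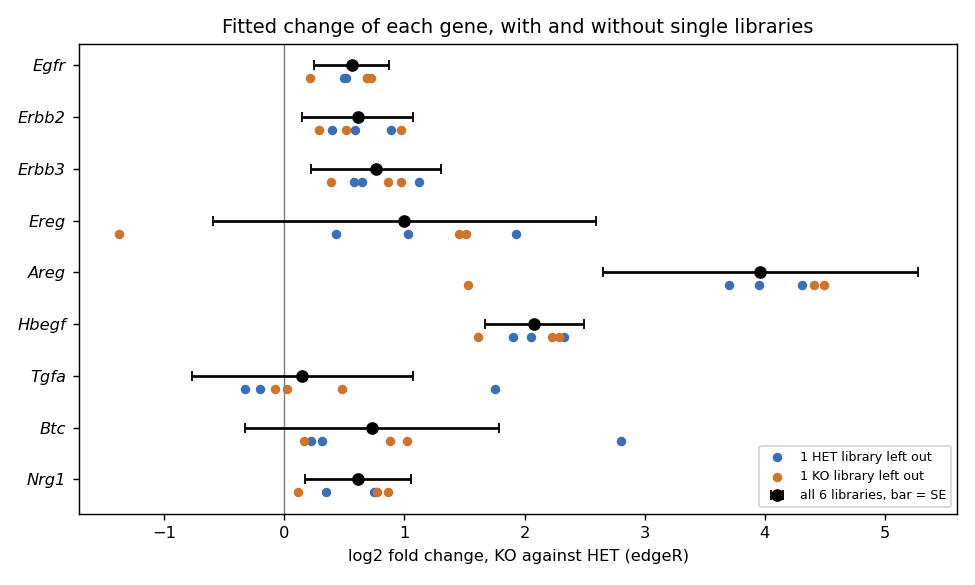
Black points give the log2 fold change of each gene with its SE from all 6 libraries, and coloured points the value with 1 HET or 1 KO library left out. Hbegf stays between 1.61 and 2.33, Areg drops to 1.53 without KO replicate 2, and Ereg and Tgfa have values on both sides of 0.

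Ereg, the gene of epiregulin, a ligand of EGFR and ERBB4 (chromosome 5, 91074622 to 91093646), varied most among the family and not by label. Its level was 0.778, 43.2 and 81.3 CPM across HET replicates 1 to 3 and at 20.7, 11.2 and 219.5 CPM in KO replicates 1 to 3. HET replicate 1 was far below all others and KO replicate 3 far above, a range of 282-fold. The spread of its log2 CPM over the libraries was larger than that of 99.2% of tested genes. Its log2 fold change was 1.00 ± 1.59 (edgeR adjusted p = 0.850) and turned to -1.38 without KO replicate 3. The libraries of replicate 3 of each label were the 2 highest.

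Areg, the gene of amphiregulin, a ligand of EGFR (chromosome 5, 91139599 to 91148432), was low in 5 libraries and present in KO replicate 2. Its level was 0.142, 0.341 and 0.235 CPM across HET replicates 1 to 3 and at 1.00, 9.98 and 0.396 CPM in KO replicates 1 to 3. KO replicate 2 was 9.99-fold above the next library. The labels did not overlap, but KO replicate 3 (10 counts, exact Poisson 95% interval 0.190 to 0.728 CPM) and HET replicate 2 (12 counts, 0.176 to 0.595 CPM) were not told apart by counting error. The log2 fold change was 3.96 ± 1.31 (edgeR unadjusted p = 0.0216, adjusted p = 0.579; DESeq2 adjusted p = 0.0568), and it was 1.53 without KO replicate 2.

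Most epithelial markers shared the peak of Areg in KO replicate 2. Krt8, Krt18, Cdh1 and Epcam, genes of simple epithelium, stood at 13.7, 37.8, 14.6 and 5.65 CPM in KO replicate 2, and no other library exceeded 2.46, 2.93, 1.47 and 0.911 CPM. Krt19, a further epithelial keratin, went the other way, with 0.542 CPM in KO replicate 2, 64.0 CPM in HET replicate 1 and 12.9 to 27.2 CPM in the rest. Of the 14 epithelial markers 9 were tested and 8 of these were higher in KO, beside 50.9% of tested genes. All 9 overlapped between labels, where 8.09% of tested genes lay higher and 7.4% lower in KO without overlap. Of the 14 markers 12 were highest in KO replicate 2, and none was at 0 in all libraries. Their summed level ran from 19.7 to 70.9 CPM over HET and from 29.5 to 110.9 CPM over KO libraries, highest in KO replicate 2. Without Krt19, left out after its values were seen, the sum was 110.3 CPM in KO replicate 2 and 2.34 to 12.4 CPM in the other libraries. Their part in the Areg level was not tested. Without KO replicate 2 the Areg difference was smaller, as given above. KO replicate 1, which had the second highest Areg, had 0.227 CPM of both Krt8 and Krt18, from 10 counts each. HET replicate 3 was close to this for Krt8, at 0.235 CPM from 6 counts.

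Areg lies in a row of ligand genes. Epgn, Ereg, Areg and Btc were the 4 protein-coding genes in 375.5 kb of chromosome 5 (91027464 to 91402994), with 39.4 kb between Epgn and Ereg and 46 kb between Ereg and Areg. These neighbours did not all share a profile. Epgn, the gene of epigen, a further EGFR ligand, was at 0.142, 0.682 and 0.235 CPM across HET replicates 1 to 3 and at 0.318, 11.9 and 0.317 CPM in KO replicates 1 to 3. Epgn and Areg were thus both highest in KO replicate 2, whereas Ereg, which lies between them, was highest in KO replicate 3 and had its second lowest level in KO replicate 2. Ereg and Btc were both highest in KO replicate 3, next highest in HET replicate 3 and lowest in HET replicate 1. Their order in the remaining libraries differed. The log2 fold change of Epgn was 3.53 ± 1.62 (edgeR adjusted p = 0.589).

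Btc, the gene of betacellulin, a ligand of EGFR and ERBB4 (chromosome 5, 91357261 to 91402994), was low in HET replicates 1 and 2. Its level was 0.495, 1.05 and 8.27 CPM across HET replicates 1 to 3 and at 2.999, 4.23 and 9.03 CPM in KO replicates 1 to 3. HET replicate 3 lay above KO replicates 1 and 2, so the labels overlapped. The log2 fold change was 0.73 ± 1.06 (edgeR adjusted p = 0.836). Leaving out HET replicate 3 gave 2.80, and leaving out KO replicate 3 gave 0.16.

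Tgfa, the gene of transforming growth factor alpha, a ligand of EGFR (chromosome 6, 86195223 to 86275719), had its highest level in a HET library. Its level was 0.708, 1.59 and 8.15 CPM across HET replicates 1 to 3 and at 4.57, 5.06 and 1.94 CPM in KO replicates 1 to 3. The KO libraries all lay between HET replicates 2 and 3. Its log2 fold change was 0.15 ± 0.92 (edgeR adjusted p = 0.964). In the replicate 3 libraries of shared title number, Tgfa was lower in KO, at a ratio of 0.238. Without HET replicate 3 the log2 fold change was 1.75, and it ran below 0 without HET replicate 1 (-0.33), HET replicate 2 (-0.20) or KO replicate 2 (-0.08).

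Nrg1, the gene of neuregulin 1, a ligand of ERBB3 and ERBB4 (chromosome 8, 31814551 to 32884029), was of moderate level in all libraries. Its level was 26.68, 13.9 and 26.7 CPM across HET replicates 1 to 3 and at 26.4, 54.2 and 21.8 CPM in KO replicates 1 to 3. KO replicate 2 was the high one, and the other KO libraries lay within the HET range. The log2 fold change was 0.61 ± 0.44 (edgeR adjusted p = 0.674) and 0.11 without KO replicate 2. Both genes annotated over Nrg1 lie on the opposite strand. Nrg1 was present while its receptors Erbb3 and Erbb4 were near or at 0 counts.

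Per exon kilobase the leading ligand differed between libraries. Over the 6 libraries Hbegf (mean 17.8) and Ereg (mean 15.2) led, followed by Nrg1 (2.73), Areg (1.66), Epgn (1.25), Btc (0.961), Tgfa (0.565), Nrg4 (0.388), Egf (0.0680) and Nrg2 (0.0491), in CPM per exon kilobase. Hbegf and Ereg did not differ beyond their spread, since Ereg ran from 0.189 to 53.2 and Hbegf from 4.95 to 45.1, and the ranges of Areg, Epgn, Btc, Tgfa and Nrg4 overlapped as well. The places of Areg and Epgn rest on KO replicate 2: without it their means were 0.348 and 0.187, below Btc (0.966), Tgfa (0.522) and Nrg4 (0.384). Nrg4 lay above Areg, and above Epgn, in 4 of 6 libraries. Hbegf held the largest ligand share in HET replicate 1 and in KO replicates 1 and 2, at 57.8%, 67.7% and 43.5%. Ereg held the largest share in HET replicates 2 and 3 and in KO replicate 3, at 52.6%, 55.9% and 51.3%. Nrg1 took 30.1% in HET replicate 1, where Ereg was low, and 2.03% to 11.8% in the other libraries. In KO replicate 2 Areg and Epgn took 18.5% and 14.8%, beside at most 2.53% and 1.90% elsewhere. The summed ligand level in replicates 1 to 3 was 8.56, 19.9 and 35.2 for HET and 32.5, 44.5 and 104 for KO, so that HET replicate 3 lay above KO replicate 1.

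The other genes of the family gave little signal. Egf, the founding ligand, stood at 0.554 to 1.08 CPM, with a log2 fold change of 0.20 ± 0.46 (edgeR adjusted p = 0.899). Nrg4, a ligand of ERBB4, was even across the libraries, at 1.86 to 2.60 CPM, with a log2 fold change of 0.15 ± 0.33 (edgeR adjusted p = 0.895). Nrg2 stood at 0.438 CPM or less and had 0 counts in 2 libraries, and Nrg3 had 0 counts in all 6, so both were not tested, like Erbb4.

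No gene that sheds the ligands or carries their signal passed the adjusted threshold in edgeR or DESeq2. Of 10 genes of ligand shedding and its control, 9 were lower in KO, and the median log2 fold change was -0.12. None had an unadjusted p under 0.05, beside 8.59% of tested genes. Over all 17584 tested genes, 8634 were lower in KO. Adam17, the main sheddase of Areg, Ereg, Tgfa and Hbegf, stood at 66.3, 59.8 and 46.8 CPM in HET and 35.7, 26.5 and 48.3 CPM in KO, with KO replicate 3 above HET replicate 3 (log2 fold change -0.65 ± 0.28, edgeR adjusted p = 0.583). The values for Adam12 and Adam15, other membrane proteases, were -1.02 ± 0.83 and -0.37 ± 0.42 (log2 fold change ± SE). Of 17 adaptors and effectors 12 were lower, with a median of -0.08. Among them Stat3, a transcription factor activated by receptor kinases, stood at 274, 216 and 257 CPM in HET and 157, 153 and 97.6 CPM in KO, which did not overlap (log2 fold change -0.88 ± 0.26, edgeR unadjusted p = 0.0135, adjusted p = 0.579). Src, a cytoplasmic kinase, had a log2 fold change of 0.39 ± 0.21, and Gab2, a docking protein, of -0.95 ± 0.69.

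Of 13 genes of the RAS-ERK cascade, 7 were lower and 6 higher, with a median of -0.09, where 50.9% of tested genes were higher. Braf, a kinase that activates MEK, stood at 51.7, 78.6 and 62.4 CPM in HET and 37.8, 46.0 and 43.0 CPM in KO (log2 fold change -0.60 ± 0.22, edgeR adjusted p = 0.579). Ksr1, a scaffold of the cascade, had a log2 fold change of -1.51 ± 0.59 and Nras, a RAS GTPase, of 0.38 ± 0.19. Braf, Ksr1 and Nras were named for the smallest unadjusted p of the list. Of the 13 genes only these did not overlap between labels, 2 lower and 1 higher in KO. The shares over all tested genes were 7.4% lower and 8.09% higher. When scaled by library size only, the medians of the shedding, adaptor and cascade lists were 0.03, 0.06 and 0.07. That scaling also moved the median of all tested genes from 0.01 to 0.15. Of 20 tested genes of receptor inhibition and endocytosis, 13 were higher, beside 50.9% of all tested genes. None had an unadjusted p under 0.05, beside 8.59% of tested genes, and the median was 0.23. Lrig1, a membrane inhibitor of ERBB receptors, stood at 46.0, 59.2 and 99.5 CPM in HET and 274, 87.0 and 113 CPM in KO, with KO replicate 2 under HET replicate 3 (log2 fold change 1.21 ± 0.52, edgeR adjusted p = 0.583). Usp8, a deubiquitinase of endosomes, and Hgs, an endosomal sorting factor, had log2 fold changes of -0.42 ± 0.21 and 0.27 ± 0.16.

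Of 17 genes that receptor signalling induces, 15 had a fitted difference above 0, beside 50.9% of all tested genes, and the median log2 fold change was 0.84. An unadjusted p under 0.05 was found for 5, all higher in KO, beside 4.3% of tested genes. KO libraries all lay above HET libraries for 6, beside 8.09% of tested genes. None passed the adjusted threshold in edgeR. The 5 genes were Etv4, Myc, Spred2, Dusp5 and Fosl1. Etv4, an ETS factor, stood at 10.5, 6.90 and 15.7 CPM in HET and 70.5, 49.8 and 38.4 CPM in KO (log2 fold change 2.26 ± 0.39, edgeR adjusted p = 0.579), and it was the gene of this list past the DESeq2 threshold. Myc, a transcription factor of growth and division, stood at 64.5, 32.4 and 66.2 CPM in HET and 87.9, 164.6 and 150.6 CPM in KO. Spred2, an inhibitor of RAS-ERK signalling, stood at 33.5, 33.2 and 39.0 CPM in HET and 50.7, 57.7 and 44.0 CPM in KO. The 2 genes of the list lower in KO were Fos and Spred1. Fos, an early response gene, stood at 6.90, 11.3 and 11.9 CPM in HET and 7.52, 4.33 and 3.56 CPM in KO. Its log2 fold change was -0.96 ± 0.41 (edgeR unadjusted p = 0.0545, adjusted p = 0.583), and that of Spred1 was -0.21 ± 0.25. Earlier results of these data, Etv4 among them, were known when the list was drawn up, so its count is not independent evidence. Without KO replicate 3 the median of the list was 0.38.

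**Figure D4:**
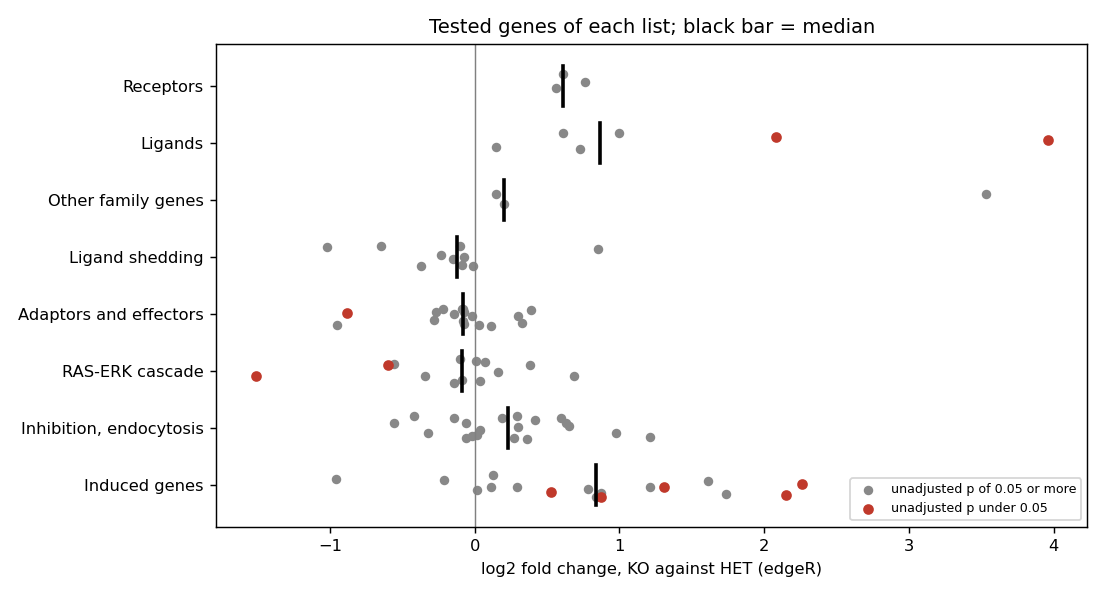
Each point is the log2 fold change (KO against HET) of 1 tested gene, grouped by list, with a black bar at the median and red points at an unadjusted p under 0.05. The induced genes (median 0.84) and the ligands (median 0.87) lie mostly to the right, and the shedding, adaptor and cascade lists have medians between -0.12 and -0.08.

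The genes with profiles most like those of Hbegf and Erbb2, which have the highest mean deposited RPKM among ligands and receptors, were sought among 15499 genes. The measure was the root-mean-square distance of log2 CPM over the 6 libraries, each gene centred on its own mean. For Hbegf the nearest were 2010300F17Rik (0.35), Lif (0.38), Ccl5 (0.40) and Fam110c (0.42). Lif, the gene of leukaemia inhibitory factor, stood at 9.52, 24.5 and 18.3 CPM in HET and 48.4, 33.1 and 78.9 CPM in KO. For Erbb2 the nearest were Raver1 (0.13), Agbl5 (0.13), Cenpv (0.15) and Lsm4 (0.15).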

How the data were processed

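Per the labels' protocols, total RNA (Trizol) went into stranded libraries depleted of ribosomal RNA. Tools named in the submitters' processing notes are cutadapt 1.2.1, Bowtie2 and Partek, and builds GRCm38 and mm10. For annotation, counting method and use of strand, the sources used here give nothing. Deposited by the authors were estimated counts per gene and RPKM values. In the deposited RPKM, 86.8% of 14363 genes kept a constant ratio of count to RPKM times GENCODE M21 gene span (within 0.1%), and 0.111% did so with exon length, so introns are part of the length used; levels between genes were therefore compared as CPM per kilobase of union exon, which assumes that the counts are of exons. Of 48408 rows, 30 with a biotype word in place of the gene were left out and 7 repeated symbols were summed.

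Counts were rounded, filtered with filterByExpr, scaled by TMM and tested KO against HET with edgeR 4.0.16 (quasi-likelihood, two-sided, Benjamini-Hochberg over 17584 genes) in R 4.3.3. SE is the absolute log2 fold change over the square root of F. The script was tested on simulated data. Alternatives used DESeq2 1.42.0, limma 3.58.1, a shared-number term, leaving out libraries, other scalings and filters, and log2 RPKM with 1 or 0.1 added; mean ligand levels without KO replicate 2 and epithelial sums without Krt19 were added after seeing the data. Replicates are numbered in accession order. Named were all 9 genes, every other family gene, up to 3 genes per list by smallest unadjusted p, defining markers, and 4 nearest profiles. Dusp5, Fosl1, Fos, Spred1, Myh11, Mcam and Rgs5 were named after their values were seen. Members and lists were chosen with earlier results of these data known. Levels are CPM on TMM-scaled library sizes. Lists are described by counts and medians, with no set test.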

Additional observations from a re-analysis of the deposited data

How the results depend on the processing

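Of the 16 alternatives, DESeq2 alone changed the number of genes past the adjusted threshold, to 232 from 0 in edgeR, and the number among the 9 genes, to 1 (Hbegf). The 1511 genes with an unadjusted p under 0.05 in edgeR became 648, 917 and 2281 when HET replicate 2, KO replicate 2 or KO replicate 3 was left out. Hbegf kept its direction under all 16 alternatives (log2 fold change 1.61 to 2.33), with adjusted p from 0.0023 to 0.975. Egfr, Erbb2, Erbb3, Areg, Btc and Nrg1 were higher in KO under every alternative that tested them, some by little. Log2 RPKM with 1 added gave 0.01 for Erbb3, 0.02 for Nrg1, 0.06 for Btc and 0.37 for Areg. The smallest values for Egfr and Erbb2 were 0.12, without both libraries that share a title number, and 0.29, without KO replicate 2. Erbb3 and Areg were left out by the filter of 1 CPM in 3 libraries. Ereg turned to -0.48 when both libraries that share a title number were left out, and ran from -1.38 to 1.93 with single libraries left out. Tgfa ran from -0.33 to 1.75 with single libraries left out. With a term for the shared title number the log2 fold changes were 2.01 for Hbegf, 3.41 for Areg, 1.53 for Btc and 0.15 for Ereg, with no gene past the adjusted threshold and 1056 at an unadjusted p under 0.05. The cause of these shifts was not tested. Depth limits Erbb3 and Areg, which had as few as 5 and 4 counts in a library.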

Other observations

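The order of levels between genes depends on the length used. In the deposited RPKM, which divide by the whole gene span, Erbb2 (mean 0.961) stood above Egfr (0.572), and Nrg1, whose span is 1069479 bases, had a mean of 0.0220. Per kilobase of exon, Egfr (10.2) stood above Erbb2 (5.61) and Nrg1 was at 2.73, with 10351 exon bases. Ratios between libraries within a gene are not touched by this length. The log2 fold change of RPKM with 1 added does depend on it. There it was 0.02 for Nrg1 and 1.75 for Hbegf, beside 0.61 and 2.08 in edgeR.

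The remaining marker lists were low in most libraries. The 8 pericyte and smooth muscle markers summed to 346.7 CPM in HET replicate 2 and to between 38.1 and 90.45 CPM in the other libraries. In HET replicate 2 most of the sum came from Myh11 (244 CPM), a smooth muscle gene, and Mcam (76.2 CPM). The pericyte gene Rgs5 stood at 1.56 CPM there. Mcam was as high in KO replicate 2, at 76.2 CPM. The 8 endothelial markers stayed at or under 13.1 CPM, the 6 Schwann cell markers at or under 4.19 CPM and the 6 adipocyte markers at or under 10.6 CPM.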
